A study of Homo sapiens with 34 samples.

Results

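To compare where the TAZ-CAMTA1 fusion and an active form of TAZ sat on chromatin, Flag chromatin immunoprecipitation followed by sequencing (ChIP-seq) was examined in SW872 cells. This is a human line derived from a liposarcoma. The members were all peaks on chromosomes 1 to 22 and X in the TAZ-CAMTA1 list, which held 1184, and in the TAZ4SA list, which held 1166. These 2350 regions were taken from 10414 peaks in the 7 lists of the series. A peak was called shared if it overlapped a peak of the other list by at least 1 bp. A peak found in the TAZ-CAMTA1 list alone is called gained here, and a peak found in the TAZ4SA list alone is called lost.

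All cells were SW872 cells that had been stably transduced with a retroviral vector. The TAZ4SA and TAZ-CAMTA1 cells were grown to near confluence, while for CAMTA1 cells, a comparator below, the labels give collection before confluence and the methods near confluence. TAZ4SA cells carried Flag-tagged TAZ in which serines were replaced by alanines, and TAZ-CAMTA1 cells carried the Flag-tagged fusion. Each construct had 3 Flag libraries and 2 input libraries, out of 34 libraries in all. Per the study's methods the triplicates came from separate transductions with stable selection, so each library was a mixed population of transduced cells and not a clone. Chromatin was sheared with either of 2 sonicators, and the labels do not say which library came from which. The authors pooled the 3 Flag libraries of a construct before calling peaks. No spread between replicates can therefore be given, no difference was tested between conditions, and every interval below is a 95% interval for counting error only. In such a pooled population, binding in fewer cells and weaker binding per cell cannot be told apart. The lists hold no measure of the expressed protein, so the construct labels were not checked against one.

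The Hippo pathway restrains TAZ (gene symbol WWTR1) and its paralog YAP. LATS kinases phosphorylate serines of TAZ, which keeps the protein in the cytoplasm and marks it for degradation. In the nucleus TAZ does not bind DNA by itself but acts as a coactivator of TEAD transcription factors. TAZ4SA escapes this control because the phosphorylated serines are absent. TAZ-CAMTA1 is the fusion protein of most epithelioid hemangioendotheliomas, a vascular sarcoma. It keeps the TEAD-binding amino terminus of TAZ and gains the carboxy terminus of CAMTA1, a calmodulin-binding transcription activator, with its transactivation domain and nuclear localization signal. Both constructs thus carry the same TEAD-binding part and differ in what follows it. YAP5SA and YAP-TFE3, the corresponding active form and fusion of YAP, were used below as outside comparators.

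The depths of the pooled immunoprecipitations were close. Mean coverage was 2.52 fragments per base for TAZ-CAMTA1 and 2.33 for TAZ4SA. The number of fragments over a summit, the base of highest pileup in a peak, ranged from 11 to 259 in the TAZ-CAMTA1 list with a median of 19. In the TAZ4SA list it ranged from 11 to 323 with a median of 22.5. At mean coverage, 11 fragments were the fewest that could be called in either list. Peaks on unplaced scaffolds, 40 of 1224 for TAZ-CAMTA1 and 51 of 1217 for TAZ4SA, were left out, and 19 of each overlapped a peak of the IgG control from empty-vector (EV) cells. On chromosomes, 0 of 1184 TAZ-CAMTA1 peaks overlapped an EV IgG peak, which allows a share of up to 0.253% (3 counts of the total), and 1 TAZ4SA peak did so. The EV IgG list held only 4 peaks on chromosomes, so few overlaps were possible. These counts therefore cannot show whether the peaks are free of control signal.

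TAZ-CAMTA1 and TAZ4SA had about 1 in 3 of their peaks in common. Of 1184 TAZ-CAMTA1 peaks, 383 were overlapped by a TAZ4SA peak, a share of 32.3% (29.7% to 35.1%). Counted from the other side, 385 of 1166 TAZ4SA peaks were overlapped, a share of 33% (30.4% to 35.8%). The shared peaks formed 382 sites, and these made up 19.5% (17.8% to 21.3%) of 1964 distinct sites bound by either protein. At 378 sites a single peak of each list met. The remaining 801 TAZ-CAMTA1 peaks were gained and 781 TAZ4SA peaks were lost.

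Shared peaks were the stronger ones in both lists. Fold enrichment is the ratio of fragments at the summit to the local background, after the same small constant is added to both. The constant makes it lower than the plain ratio. Fold enrichment had a median of 6.27 in shared TAZ-CAMTA1 peaks and 4.82 in gained peaks. In the TAZ4SA list it was 7.30 in shared peaks and 5.41 in lost peaks. The medians of fragments at the summit were 26 and 18 for TAZ-CAMTA1, and 28 and 20 for TAZ4SA. When each list was ranked by −log10 q and divided into 4 equal parts, sharing dropped from part to part in both. For TAZ4SA it was 52.9% (47.2% to 58.6%) in the strongest part, followed by 37.0%, 27.1% and 15.1%. The corresponding shares for TAZ-CAMTA1 were 56.1% (50.4% to 61.6%), 36.5%, 21.96% and 14.9%. A shared peak also had to be called in the other list, which weak peaks reach less often even at equal binding. How much of the fall comes from this threshold was not tested.

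**Figure D1:**
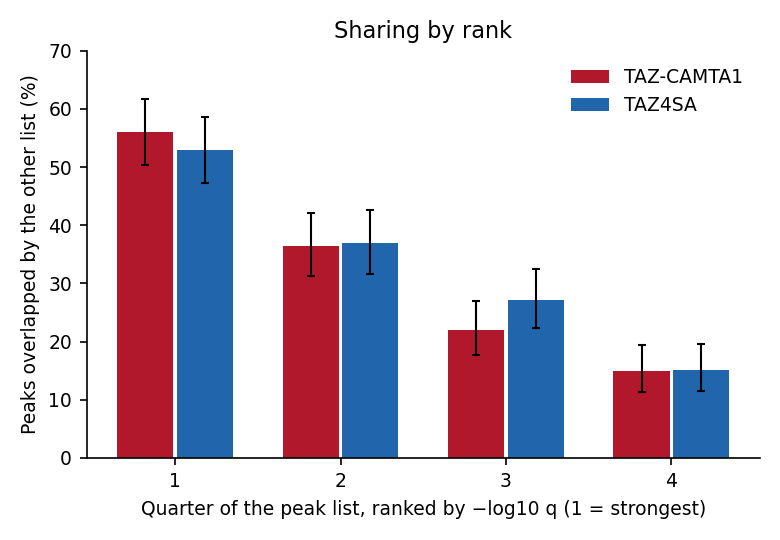
Share of peaks (%) overlapped by the other list in each of 4 equal parts of the TAZ-CAMTA1 list (red) and the TAZ4SA list (blue), ranked by −log10 q, with 95% Wilson intervals for counting error as bars. In both lists the share falls from above 50% in the strongest part to 14.9% and 15.1% in the weakest. Sharing requires a call in the other list, which weak peaks reach less often.

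The top of the ranking was not the same in both lists. All of the 10 strongest TAZ-CAMTA1 peaks were present somewhere in the TAZ4SA list, whereas 7 of the 10 strongest TAZ4SA peaks were present in the TAZ-CAMTA1 list. Among the strongest 100 the numbers were 65 and 55. Only 2 peaks belonged to the top 10 of both lists, and 25 belonged to the top 100 of both. At shared sites the median difference in rank was 188 places. Whether the lists differ in these counts was not tested.

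Where both proteins bound, their summits lay close together. The median distance between the 2 summits was 36 bp (quartiles 13 and 108 bp), and the largest was 1042 bp. The summits were within 50 bp of each other at 233 of 382 sites (61.0%; 56.0% to 65.8%) and more than 200 bp apart at 42 sites. The TAZ-CAMTA1 summit lay inside the TAZ4SA peak at 363 sites, or 95.03%. No direction stood out along the chromosome: the TAZ-CAMTA1 summit had the higher coordinate at 180 sites, the lower at 196 and the same at 6.

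The summit distance was shorter where more fragments defined both summits. With fewer than 15 fragments in the weaker list the median distance was 95 bp (45 sites). It was 71 bp with 15 to 19 fragments (97 sites), 30.5 bp with 20 to 29 (140 sites), 20 bp with 30 to 49 (83 sites) and 14 bp with 50 or more (17 sites). The best-covered common sites were thus placed most alike.

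**Figure D2:**
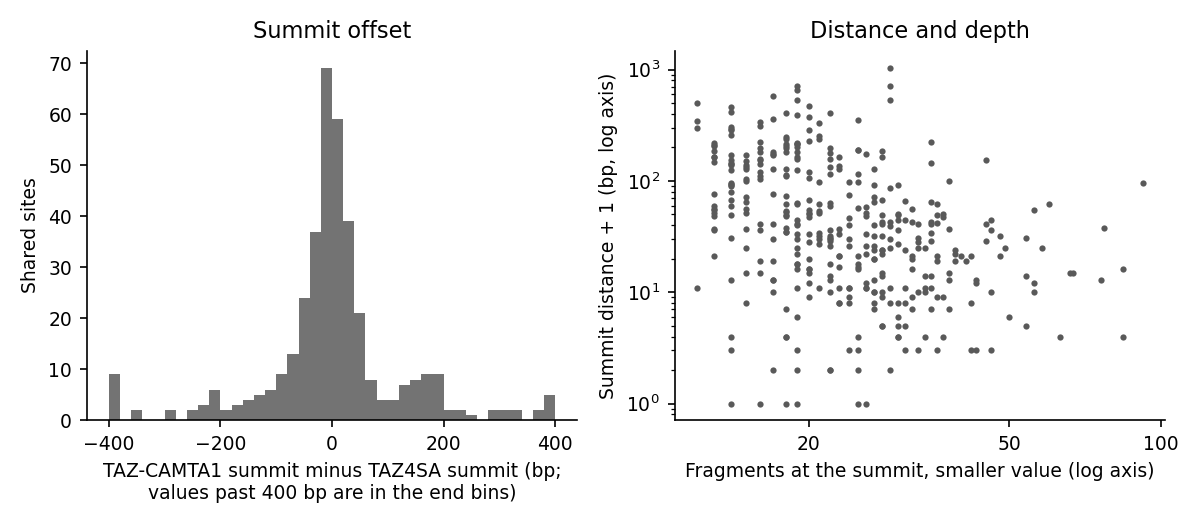
Left, number of shared sites by the position of the TAZ-CAMTA1 summit minus that of the TAZ4SA summit in 20 bp bins; right, summit distance plus 1 bp against the smaller number of fragments at the 2 summits, both on log axes. Most sites gather around 0, and distances above 200 bp lie almost all at sites with few fragments.

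TAZ-CAMTA1 peaks were wider. At shared sites the TAZ-CAMTA1 peak was the wider one at 235 sites and the narrower at 145, with a median ratio of widths of 1.13. Median widths were 505 bp for shared TAZ-CAMTA1 peaks and 440 bp for shared TAZ4SA peaks, and 366 bp and 339 bp for gained and lost peaks. The difference was larger at strong peaks: with 50 or more fragments at the summit, the median was 740 bp in 14 gained peaks and 402.5 bp in 40 lost peaks. Peaks wider than 800 bp made up 8.45% (6.99% to 10.2%) of the TAZ-CAMTA1 list and 4.63% (3.57% to 5.99%) of the TAZ4SA list. Peaks were called on whole fragments, so width also depends on fragment length. The lists hold no fragment lengths, and the sonicator used for each library is not given. The part of shearing in the difference was not tested.

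The level of enrichment at shared sites agreed only in part. Across the 382 sites, Spearman's rho between the fold enrichments was 0.493 and Pearson's r of the log2 values was 0.478. These describe sites of 1 pair of pooled libraries, which share mappability and copy number. The local backgrounds of the 2 lists, which are no measure of binding, had a rho of 0.407 across the same sites, and the widths had a rho of 0.289. Fold enrichment was a little lower with the fusion, with a median log2 ratio of TAZ-CAMTA1 over TAZ4SA of -0.18 (quartiles -0.61 and 0.23), which corresponds to a ratio of 0.885.

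More shared sites leaned strongly to TAZ4SA than to the fusion. Fold enrichment was at least 2-fold higher with TAZ4SA at 47 sites (12.3%; 9.38% to 15.98%) and at least 2-fold higher with TAZ-CAMTA1 at 16 sites (4.19%; 2.59% to 6.69%). At the other 319 sites, or 83.5%, the values were within 2-fold. A pair counts as shared only if both peaks were called, which limits how uneven it can be. Of the shared peaks, 164 of 383 for TAZ-CAMTA1 were at least 2-fold above the lowest fold enrichment that the other list could call. For TAZ4SA this held for 234 of 385. The counts of 47 and 16 sites therefore do not rest on equal room in both directions. From the number of fragments per mean coverage, the interval of the ratio excluded 1 at 69 sites lower with TAZ-CAMTA1 and at 26 sites higher, and it held 1 at 287 sites. Both criteria were met at 42 and 10 sites respectively. The intervals were taken site by site, without correction for their number, so some exclude 1 by counting error alone.

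**Figure D3:**
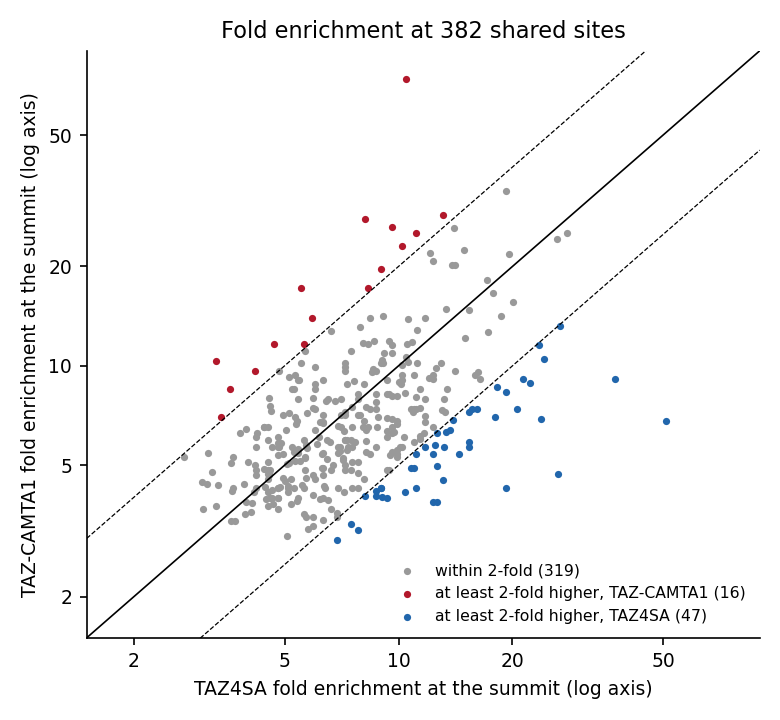
Fold enrichment at the summit in the TAZ-CAMTA1 list (y) against the TAZ4SA list (x) at 382 shared sites, both on log axes, with equality as a solid line and 2-fold limits dashed. The 47 sites at least 2-fold higher with TAZ4SA (blue) outnumber the 16 higher with TAZ-CAMTA1 (red). Only sites called in both lists are shown, which limits how uneven they can be.

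The site that leaned most to the fusion was also its strongest peak, on chromosome 19 from 2462456 to 2463941 in the GRCh37 build. It had 259 fragments and 73.8-fold enrichment with TAZ-CAMTA1, against 54 fragments and 10.5-fold with TAZ4SA. The ratio of fragments per coverage was 4.43 (3.29 to 6.05), and the summits were 13 bp apart. A site on chromosome 2 from 48338519 to 48339049 followed, with 27.8-fold against 8.14-fold and summits 2 bp apart. Its ratio of fragments per coverage was 2.49 (1.68 to 3.76). The other 3 of the 5 sites with the highest ratio were on chromosome 17 from 854803 to 855462 and from 7254529 to 7255474, and on chromosome 19 from 34971987 to 34972691. Their ratios of fold enrichment were 3.14, 3.12 and 2.75. Their ratios of fragments per coverage were 1.76 (1.01 to 3.14), 2.11 (1.33 to 3.42) and 2.74 (1.81 to 4.26). All 5 sites were picked by ratio from the same counts, and the intervals do not allow for that choice. At both chromosome 17 sites the local background was lower with TAZ-CAMTA1, at 2.96 against 5.67 and 2.77 against 4.26. This difference in background enters the ratio of fold enrichment.

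The site that leaned most to TAZ4SA was on chromosome 14 from 62221764 to 62222536. There TAZ4SA reached 179 fragments and 50.8-fold, the highest fold enrichment of its list, and TAZ-CAMTA1 reached 23 fragments and 6.82-fold. The ratio of fragments per coverage was 0.119 (0.0733 to 0.184), with summits 10 bp apart. The TAZ-CAMTA1 peak ranked 344 in its own list. On chromosome 9 from 100985523 to 100985914 the values were 26.4-fold with TAZ4SA and 4.72-fold with TAZ-CAMTA1. On chromosome 12 from 79940998 to 79941460 they were 19.2-fold and 4.26-fold. The remaining sites of the 5 were found at 1326721 to 1328794 of chromosome 5, with 37.4-fold and 9.12-fold, and at 41686632 to 41687357 of chromosome 22, with 23.7-fold and 6.89-fold. At the chromosome 5 site the local background was 3.01 with TAZ4SA and 6.45 with TAZ-CAMTA1. The ratio of fragments per coverage there was 0.415 (0.306 to 0.557). The 5 sites were again picked by ratio, and the intervals do not allow for that choice.

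The 10 strongest common sites were taken by the smaller −log10 q of each pair, a rule that requires both peaks to be strong and leaves out the most uneven sites. Their ratios of fold enrichment ran from 0.494 to 1.76. On chromosome 18 from 3261453 to 3262365 the TAZ-CAMTA1 peak had 97 fragments and 25.3-fold enrichment, and the TAZ4SA peak 92 fragments and 27.9-fold. On chromosome 19 from 2540320 to 2541524 the values were 84 fragments and 24.1-fold, against 86 fragments and 26.1-fold. On chromosome 22 from 39570745 to 39572785 they were 76 fragments and 21.9-fold, against 88 fragments and 19.6-fold. At these 3 sites the interval of the fragment ratio held 1. It excluded 1 at 2 of the 10, both higher with TAZ-CAMTA1. These were on chromosome 14 from 23449613 to 23450968, where the ratio was 1.73 (1.26 to 2.39), and on chromosome 3 from 134092213 to 134093797, where it was 1.58 (1.13 to 2.24).

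Many unshared peaks were too weak to show a difference. For each one, the fold enrichment was divided by the lowest that the other list could have called at the same relative background. This gives the difference that the missing call implies at the observed counts, called the bound here. It holds if the local background was the same in both and the region was not removed from 1 list, and it does not include counting error. By this measure 127 of 801 gained peaks (15.9%; 13.5% to 18.5%) and 267 of 781 lost peaks (34.2%; 30.9% to 37.6%) were at least 2-fold above the other list's limit. Over all peaks, shared and unshared, the shares were 24.6% for TAZ-CAMTA1 and 43% for TAZ4SA. The bound was under 1.5-fold for 499 gained peaks (62.3%) and 329 lost peaks (42.1%), so for these the missing call implies no difference of 1.5-fold or more.

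The 10 strongest gained sites had fold enrichments of 12.3 to 17.6, with 51 to 76 fragments and bounds of 4.03 to 4.88. The first by −log10 q spanned 152066053 to 152066588 of chromosome X, with 61 fragments and 17.6-fold enrichment. It was followed by chromosome 11 from 12695648 to 12696339, at 12.8-fold with 76 fragments over a higher background. Next came sites at 68741230 to 68741915 of chromosome 16 (13.6-fold), at 127421345 to 127422015 of chromosome 9 (15.9-fold) and at 86045969 to 86047024 of chromosome 1 (15.6-fold). The others were on chromosome 16 from 69564341 to 69565133, on chromosome 7 from 104653067 to 104653854 and from 151125507 to 151126004, on chromosome 9 from 86046814 to 86047642 and on chromosome 11 from 57405121 to 57406601. In none of the 10 was a TAZ4SA peak nearer than 25.8 kb.

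Lost sites reached higher values than gained sites. The 10 strongest had fold enrichments of 15.7 to 26.7, with 64 to 323 fragments and bounds of 5.06 to 11.6. The strongest peak of the whole TAZ4SA list was among them, on chromosome 5 from 165784591 to 165786011, with 323 fragments, 26.7-fold enrichment and the bound of 11.6. Its local background was 11.1, above the mean coverage of 2.33 for TAZ4SA. The bound assumes an equally raised background in the TAZ-CAMTA1 list. On chromosome 11 from 131211956 to 131212560 TAZ4SA had 117 fragments and 24.5-fold, and on chromosome 1 from 112320702 to 112321654 it had 98 fragments and 21.8-fold. On chromosome 20 from 59760991 to 59761669 it had 79 fragments and 24.0-fold. The others lay on chromosome 1 from 210439022 to 210439299 and from 109045698 to 109046076, on chromosome 3 from 197216978 to 197217273, on chromosome 5 from 37272776 to 37273249, on chromosome X from 46187025 to 46187360 and on chromosome 14 from 100046219 to 100046595. The nearest TAZ-CAMTA1 peak was 4.98 kb away at the last of these and farther at the other 9.

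Gained and lost sites were then set against peaks of the YAP constructs, whose Flag libraries did not enter the split. Lost sites were found more in the YAP5SA list than in the YAP-TFE3 list, whereas gained sites were found in both to a similar extent. Of 781 lost peaks, 496 were overlapped by a YAP5SA peak (63.5%; 60.1% to 66.8%) and 222 by a YAP-TFE3 peak (28.4%; 25.4% to 31.7%). For gained peaks the numbers were 332 of 801 in YAP5SA (41.4%; 38.1% to 44.9%) and 309 in YAP-TFE3 (38.6%; 35.3% to 42.0%). Over all TAZ4SA peaks the shares were 71.1% and 44.6%, and over all TAZ-CAMTA1 peaks they were 56% and 50.8%, so each unshared group lay below the share of its whole list. The YAP5SA and YAP-TFE3 lists held 3754 and 3336 peaks on chromosomes.

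Peaks found with a single YAP construct were counted next. YAP5SA but not YAP-TFE3 overlapped 300 lost peaks (38.4%; 35.1% to 41.9%) and 128 gained peaks (15.98%; 13.6% to 18.7%), beside 31.1% of all TAZ4SA and 16.4% of all TAZ-CAMTA1 peaks. YAP-TFE3 but not YAP5SA overlapped 26 lost peaks (3.33%; 2.28% to 4.83%) and 105 gained peaks (13.1%; 10.9% to 15.6%), beside 4.63% and 11.1% of the whole lists. The intervals of gained and lost peaks did not overlap in either case, and the whole lists differed in the same direction. Both YAP lists overlapped 204 gained and 196 lost peaks. Neither overlapped 364 gained peaks (45.4%) and 259 lost peaks (33.2%), beside 32.9% of all TAZ-CAMTA1 and 24.3% of all TAZ4SA peaks. Of 383 shared TAZ-CAMTA1 peaks, in comparison, 331 were in YAP5SA (86.4%), 292 in YAP-TFE3 (76.2%) and 25 in neither.

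The same order was seen among peaks of similar depth. With 30 to 49 fragments at the summit, 91.2% (85.2% to 94.9%) of 136 lost peaks and 74.7% (64.1% to 83.0%) of 79 gained peaks were in YAP5SA. In YAP-TFE3 the order turned around, with 41.2% (33.3% to 49.6%) of lost and 68.4% (57.5% to 77.6%) of gained peaks. With 50 or more fragments the YAP-TFE3 shares were 40.0% of 40 lost peaks and 85.7% of 14 gained peaks. The YAP5SA shares in that class were 92.5% (80.1% to 97.4%) and 71.4% (45.4% to 88.3%), with overlapping intervals. In the weakest class, with 11 to 14 fragments, the intervals of gained and lost peaks overlapped for both YAP lists. Shares over all peaks of a depth class, shared ones included, were not computed. Over the whole lists, YAP5SA overlapped 71.1% of TAZ4SA and 56% of TAZ-CAMTA1 peaks, and YAP-TFE3 44.6% and 50.8%. The order in the classes can therefore not be told apart from that of the whole lists.

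**Figure D4:**
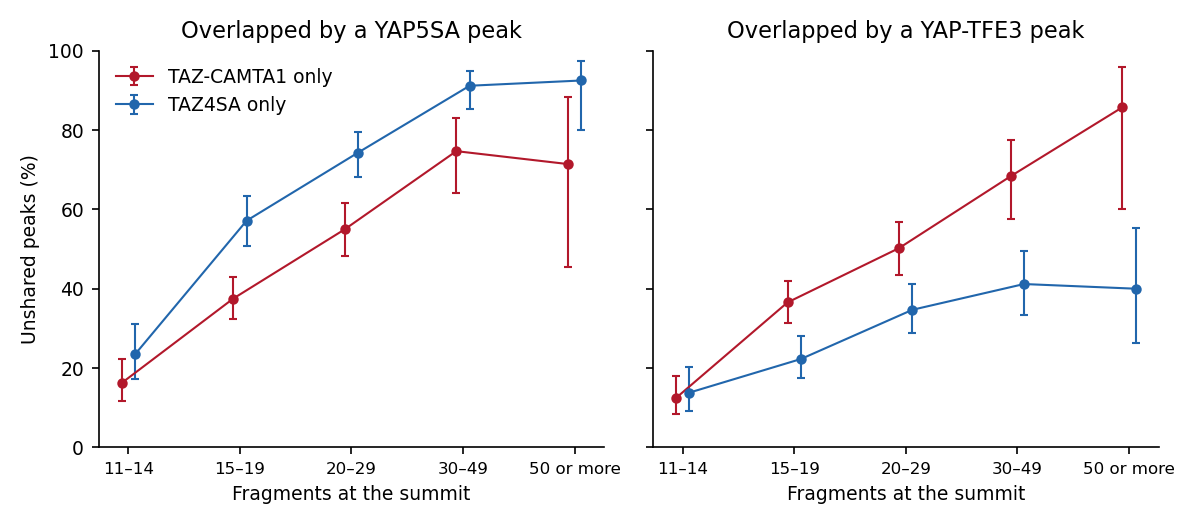
Share (%) of gained peaks (red) and lost peaks (blue) overlapped by a YAP5SA peak (left) or a YAP-TFE3 peak (right), by the number of fragments at the summit, with 95% Wilson intervals as bars. Lost peaks lie above gained peaks for YAP5SA in every class, and below them for YAP-TFE3 from 15 fragments upward. The whole TAZ4SA and TAZ-CAMTA1 lists differ in the same directions.

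The strongest unshared sites were examined in the same way. All 10 strongest lost sites had a YAP5SA peak and 5 had a YAP-TFE3 peak. Of the 10 gained sites, 6 had a YAP5SA peak and 8 a YAP-TFE3 peak. All of these sites had 50 or more fragments, so they were already counted in that class above. In that class, YAP5SA and YAP-TFE3 overlapped 92.5% and 40.0% of lost peaks, and 71.4% and 85.7% of gained peaks. The named sites are among its 40 lost and 14 gained peaks, so the class is not a separate base. Over the whole lists the shares were 71.1% and 44.6% for TAZ4SA, and 56% and 50.8% for TAZ-CAMTA1. At the strongest lost site, on chromosome 5 from 165784591, YAP5SA had 18.3-fold enrichment and YAP-TFE3 2.56-fold. At the lost site on chromosome 5 from 37272776 the values were 12.8-fold and 3.90-fold. In contrast, the strongest gained site, on chromosome X, had an 8.56-fold YAP-TFE3 peak and no YAP5SA peak. At the gained sites on chromosome 16 from 69564341 and chromosome 7 from 104653067, YAP-TFE3 reached 11.3-fold and 13.0-fold, and YAP5SA 4.82-fold and 6.61-fold. The order was the opposite at the gained site on chromosome 9 from 86046814, with 8.33-fold for YAP5SA and 4.06-fold for YAP-TFE3, and at the one on chromosome 7 from 151125507, with 4.68-fold and 3.67-fold. The gained site on chromosome 16 from 68741230 had a 7.26-fold YAP5SA peak and no YAP-TFE3 peak. The gained site on chromosome 11 from 12695648 was in neither YAP list.

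**Figure D5:**
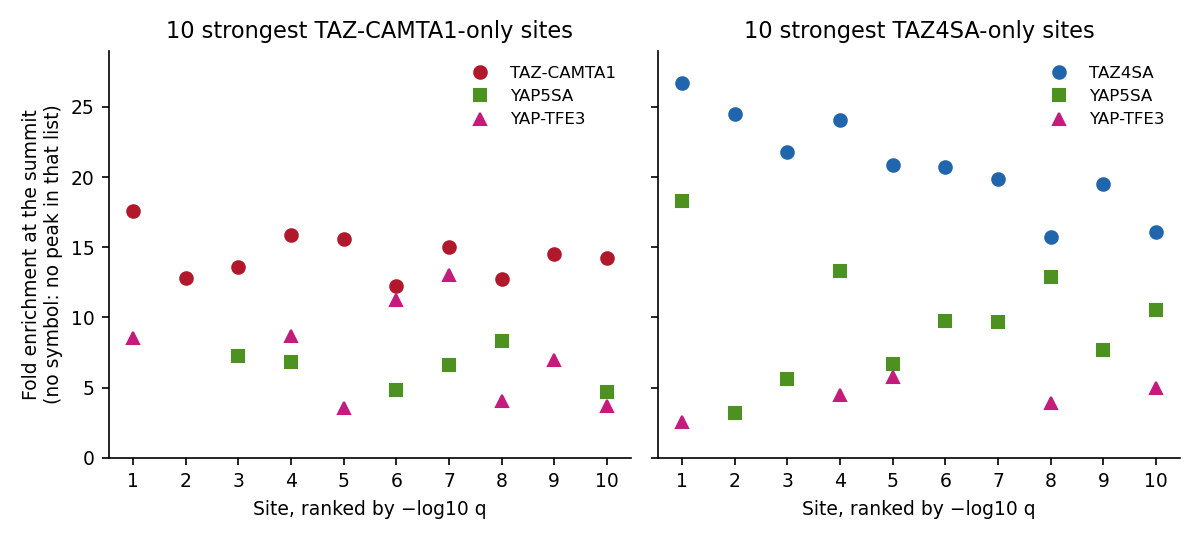
Fold enrichment at the summit of the 10 strongest gained sites (left) and lost sites (right), ranked by −log10 q, for the construct that defines the site and for YAP5SA (squares) and YAP-TFE3 (triangles), with no symbol where a list has no peak. YAP5SA peaks are present at all 10 lost sites and 6 gained sites, and YAP-TFE3 peaks at 5 lost and 8 gained sites. The depths of the YAP lists were not worked out.

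Enrichment in the YAP lists was also compared where both had a peak. YAP-TFE3 had the higher fold enrichment at 84 of 204 gained peaks (41.2%; 34.6% to 48.0%) and at 52 of 196 lost peaks (26.5%; 20.8% to 33.1%). Over all 1369 YAP5SA peaks that a YAP-TFE3 peak overlapped, YAP-TFE3 was higher at 561 (41.0%; 38.4% to 43.6%). This is close to the share at gained peaks. In this base each YAP5SA peak kept its own fold enrichment, whereas gained and lost sites took the highest YAP5SA value over them. The depths of the YAP lists were not worked out here, and fold enrichment depends on depth. The median log2 ratio of YAP-TFE3 over YAP5SA was -0.11 at gained and -0.36 at lost peaks, beside -0.11 over all 1369 YAP5SA peaks that a YAP-TFE3 peak overlapped. At shared sites it was -0.30. Among these, the 33 sites in both YAP lists that leaned at least 2-fold to TAZ4SA had a median of -0.65, and YAP-TFE3 was higher at 4 of them. The 9 sites that leaned at least 2-fold to TAZ-CAMTA1 had a median of -0.32, which was not above the -0.22 of the 222 sites within 2-fold. Across the 264 shared sites with a peak in all 4 lists, Spearman's rho between the log2 ratio of TAZ-CAMTA1 over TAZ4SA and that of YAP-TFE3 over YAP5SA was 0.297. The 2 ratios come from different Flag libraries. They share the cell line and its copy number, and which control libraries set each background was not given in the sources used here.

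Full-length CAMTA1, the carboxy-terminal partner, had 156 peaks on chromosomes, and 3 gained peaks overlapped one (0.253% of all TAZ-CAMTA1 peaks). The strongest of them was the gained site on chromosome 7 from 104653067 to 104653854, at 15.1-fold with 52 fragments, which was also in both YAP lists. The others were on chromosome 7 from 75987692 to 75987968 and chromosome 15 from 79165394 to 79165727, with 17 and 16 fragments, and were in neither YAP list. None of 383 shared TAZ-CAMTA1 peaks overlapped a CAMTA1 peak, which allows a share of up to 0.783%, again from 3 counts. With only 156 CAMTA1 peaks, few overlaps were possible. The limit does not cover CAMTA1 sites that were not called, so these counts cannot show whether the fusion avoids such sites. A CAMTA1 peak overlapped 1 TAZ4SA peak, or 0.0858%, on chromosome 10 from 135490992 to 135491395, which an EV IgG peak also overlapped and which had 1.79-fold enrichment.

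Unshared peaks were rarely near misses. A peak of the other list lay within 500 bp of 10 gained and 10 lost peaks, and within 10 kb of 56 gained (6.99%) and 57 lost peaks (7.30%). Median distances to the nearest peak of the other list were 369 kb and 354 kb. The closest miss was a TAZ4SA peak on chromosome 7 from 157101776 to 157102060, 44 bp from a TAZ-CAMTA1 peak. An 88 bp gap separated the TAZ4SA peak on chromosome 7 from 41066864 to 41067321 and the TAZ-CAMTA1 peak from 41067410 to 41067749. The shortest overlap that counted as shared was 6 bp, on chromosome 7, where the TAZ4SA peak ended at 68164234 and the TAZ-CAMTA1 peak began at 68164229. Overlaps of 14 and 65 bp on chromosome 20 came next, at TAZ-CAMTA1 peaks from 44600466 to 44600869 and from 19973374 to 19973677, and their summits were 237 and 392 bp apart.

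Shared peaks were spread over all 23 chromosomes. The share was lowest on chromosome 6, at 4 of 35 TAZ-CAMTA1 peaks (11.4%; 4.54% to 26.0%) and 4 of 32 TAZ4SA peaks. On chromosome 17 it was 27 of 56 (48.2%; 35.7% to 61.0%) and 27 of 53. TAZ-CAMTA1 had more peaks than TAZ4SA on chromosomes 1 (79 and 57) and 19 (42 and 29), and fewer on chromosome 5 (101 and 120). As shares of the whole lists, the intervals of both constructs overlapped on each of these chromosomes, and no difference was tested. The median local background on chromosome 5 was 1.53 times mean coverage for TAZ-CAMTA1 and 1.56 times for TAZ4SA, and its part in these counts was not tested.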

How the data were processed

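ChIP-seq with an anti-DYKDDDDK antibody was used on SW872 cells. Per the study's methods, reads of the replicates were first combined by the authors. Atropos was used for trimming, BWA-MEM for alignment to GRCh37 and macs2 for peak calling on whole fragments. Reads that mapped to several places and greylisted regions had been removed. The deposited fold enrichment of each peak is a ratio of pileup at the summit to local background, with the same small constant added to both. The p-value and q-value were deposited by the authors as −log10 values, and the summit as an offset. The highest deposited q was 0.0877 for TAZ-CAMTA1 and 0.0707 for TAZ4SA.

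The submitters' processing notes list hg38. The positions were used as GRCh37, since 42 of 9600 chromosomal peaks in 6 lists ended past the end of the GRCh38 chromosome. The supplied genome and annotation were of GRCh38, so the genes, features and sequences at the sites were not analysed here, and positions were not converted.

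Fragments at each summit and the local background were recovered from the deposited fold enrichment and p, given that fragments are whole numbers. All 2350 peaks had a single solution, within 0.0002 of the deposited −log10 p. On simulated lists 100% of 1131 TAZ-CAMTA1 and 1125 TAZ4SA peaks were recovered. Mean coverage was read from the lowest background that peaks shared. At a shared site with several peaks, the pair with the longest overlap was used. Where several YAP peaks overlapped a site, the highest fold enrichment was taken. Shares have Wilson intervals, a share of 0 has the upper limit given by 3 counts, and ratios of fragments have exact conditional Poisson intervals. These cover counting error only and treat peaks as independent. No value column was left without a group.

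Named sites were the 10 gained and 10 lost peaks with the highest −log10 q, the 10 pairs with the highest smaller −log10 q, the 5 pairs at each end of the fold ratio, and the 3 shortest overlaps and gaps. These members, lists and rules were chosen with earlier results of these data known. Alternatives were q below 0.01, reciprocal overlap of 50%, sharing across gaps of 500 bp or less, all contigs, single-peak sites, other measures of level and rank, another background, and lists of equal length. The computations were run in Python 3.11.15 with scipy 1.17.1, numpy 2.4.6 and pandas 2.3.3, and the figures with matplotlib 3.10.9.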

Additional observations from a re-analysis of the deposited data

How the results depend on the processing

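Of 98 alternatives run over 21 results, 74 stayed within the interval of the reported value, or within 1.5 times a reported count, and none turned the direction of a ratio or correlation. No paired analysis was possible because each construct has a single list made from its 3 libraries together. Leaving out 1 library was not possible either. The 50% reciprocal overlap lowered sharing to 23.6% for TAZ-CAMTA1 and 24.0% for TAZ4SA, and to 43.2% and 40.5% in the strongest of 4 parts. It lowered the share of gained peaks in either YAP list to 41.6% (30.6% in YAP5SA, 26.5% in YAP-TFE3), and that of lost peaks to 55.6% (49.4% and 22.2%). These follow from the stricter rule. With each list reduced to its strongest 500 peaks, 36.2% and 36.6% were shared. With −log10 q in place of fold enrichment the median log2 ratio was -0.30, and 58 and 114 sites were at least 2-fold apart, higher with TAZ-CAMTA1 and with TAZ4SA. A −log10 value is not proportional to fold enrichment. On all contigs the rank correlation of fold enrichment was 0.593, as scaffold peaks were added. Further alternatives were chosen after seeing the data. With YAP5SA and YAP-TFE3 reduced to their strongest 1000 peaks, 25.8% of gained peaks were in either (17.0% in YAP5SA, 16.5% in YAP-TFE3), and 33.3% of lost peaks (29.96% and 9.99%). At 20 to 29 fragments the median widths were 397 bp for gained and 353 bp for lost peaks. The other alternatives, among them q below 0.01, a gap of up to 500 bp and a chromosome-wide background, moved no value beyond these limits. Depth limits the weak peaks most: with 11 fragments needed for a call, the bound from a missing peak, without counting error, was under 1.5-fold for 62.3% of gained and 42.1% of lost peaks.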

Other observations

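Some binding sites lay in tight groups. Peaks of both lists were linked where less than 20 kb separated them, a limit chosen after the values were seen. This gave 14 groups of 5 or more peaks, 74 peaks in all, and each of the 14 held peaks of both constructs. A shared site counts as a peak of each list, so any group with a shared site holds both constructs by the rule. The group with the most peaks was on chromosome 3 from 134076332 to 134093797, with 4 TAZ-CAMTA1 and 3 TAZ4SA peaks, of which 3 and 3 were shared, and with fold enrichments of up to 22.4 and 17.7. A group on chromosome 14 from 23446951 to 23452477 held 2 TAZ-CAMTA1 and 3 TAZ4SA peaks, with fold enrichments of up to 33.8 and 19.2. On chromosome 9 a group from 127042288 to 127072485 held 4 TAZ-CAMTA1 and 2 TAZ4SA peaks, of up to 7.54-fold and 13.3-fold.

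At 4 shared sites a single peak of one construct overlapped 2 of the other. The TAZ-CAMTA1 peak on chromosome 1 from 16470691 to 16473814 was 3124 bp wide, the widest of its list, and covered TAZ4SA peaks of 718 and 268 bp. Single TAZ-CAMTA1 peaks also overlapped pairs of TAZ4SA peaks on chromosome 11 from 114165660 to 114166745 and chromosome 5 from 137169424 to 137170519, where the TAZ4SA peaks ran past the ends of the TAZ-CAMTA1 peak. The reverse was found on chromosome 7, where a TAZ4SA peak from 55132703 to 55133592 overlapped part of TAZ-CAMTA1 peaks of 413 and 546 bp.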
